A study of Mus musculus with 2 samples.

Results

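The genes described here encode the proteins of the cytosolic ribosome (names beginning Rpl or Rps) and of the mitochondrial ribosome (Mrpl or Mrps). The set was chosen with earlier results of these data known. Its members were taken by name: Rpl, Rps, Mrpl or Mrps followed by a digit, with Rplp0, Rplp1, Rplp2 and Rpsa added. The Rps6k kinases were left out. This gave 161 of the 31829 gene names on the array, 86 cytosolic and 75 mitochondrial, with 273 probes on 309 spots. RNA came from parental Ba/F3 cells, an IL-3-dependent mouse cell line of the B lineage, and from its derivative BaF/3 (#BEB1), both grown with recombinant mouse IL-3. The derivative is a single clone. It came from Ba/F3 cells that carried a retroviral cDNA library of rat CG4 oligodendrocyte precursor cells and were sorted repeatedly for binding of Ecrg4–Fc, so clonal differences and the selected property cannot be told apart. Each cell line was measured on 1 Agilent 1-colour array, so differences are given as sizes, without replicates and without p-values.

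Cytosolic ribosomes translate the messages of the nucleus, and their RNA and proteins are joined in the nucleolus. Their protein genes are among the most highly transcribed of a growing cell, and many of their messages begin with a pyrimidine tract, the 5′ TOP, which ties their translation to mTOR signalling. Mitochondrial ribosomes have a protein set of their own, also encoded in the nucleus, and make the few respiratory chain subunits that mitochondrial DNA encodes.

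The deposited files give the 2 arrays to opposite cell lines. Over 39429 probes, Pearson’s r between the normalised column of the parental cells and the scanner output was 0.9999976 for the clone and 0.9822846 for the parental cells. For the column of BaF/3 (#BEB1) it was 0.9999962 for the parental cells and 0.9822864 for the clone itself. The arrays are therefore called array A (scanner output of the parental cells, normalised column of the clone) and array B (the reverse). A difference above 0, array A minus array B, is higher in the clone by the normalised table and higher in the parental cells by the scanner output. Olr1, which encodes the LOX-1 receptor cloned from BaF/3 (#BEB1), had a log2 level of 3.11 on array A (array B: −1.90). It was thus higher on the array that the normalised table gives to the clone and the scanner output to the parental cells, and the arrays were not assigned from it.

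Levels are log2 values of the processed signal divided by the 75th percentile of its array, with percentiles of 1506 (array A) and 1080 (array B). A gene was measured where a probe was well above background on both arrays, which held for 14832 genes, and no spot was saturated (0 spots). Of marker genes of the early B lineage, 2 of 10 were measured, Cd79b and Vpreb1, and Cd79a, Pax5 and Ebf1 did not pass this limit on array A or array B. The summed level of the early B markers was 0.377 on array A and 1.54 on B, and that of neutrophil markers 0.713 and 22.3, with 5 of 6 measured. Their part in the differences of ribosomal protein genes was not tested, and in bulk RNA fewer cells of a type and less RNA per cell cannot be told apart.

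Probes and transcript starts that the results turn on are shown first. The probes of Mrps31 and Mrpl32 belong to the genes with the largest differences, and the 3 probes of Rps24, which the array design labels with 3 different splice variants, differed most from each other. Positions are mm9, as the array design gives them. The Mrps31 probe spans chr8:23538340-23539688 on the plus strand and crosses an intron, and the Mrpl32 probe lies at chr13:14702894-14702953 on the minus strand. The Rps24 probes lie on the plus strand at chr14:25312695-25315015 (variant 1, across an intron), chr14:25311190-25312666 (variant 2, across an intron) and chr14:25315021-25315080 (variant 3). The first 3 below are whole probes of 60 bases, and of the others the first 30 bases are given.
Mrps31: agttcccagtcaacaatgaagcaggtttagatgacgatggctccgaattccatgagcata
Mrpl32: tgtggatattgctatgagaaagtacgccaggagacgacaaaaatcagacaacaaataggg
Rps24 variant 2: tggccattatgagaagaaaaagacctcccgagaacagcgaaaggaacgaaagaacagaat
Rps24 variant 1: aatgttggtgctggcaaaaagtgagtggag
Rps24 variant 3: ttgatgttttgctgtgatgtgcagatttct

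No pair of the Rps24 probes shared a run of more than 6 bases, so each read its own stretch of the message. The transcript starts show the feature for which cytosolic ribosomal protein messages are known. The lines below give the 10 bases before and the 15 bases from the start of RefSeq transcripts (GRCm38.p6), on the strand of the gene, with the pyrimidine tract from the start in capitals.
Rpl15: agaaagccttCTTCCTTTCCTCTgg
Rpl35: ccgccctttcCTCTTTCTCTCgaac
Rps10: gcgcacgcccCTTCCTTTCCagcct
Rps6: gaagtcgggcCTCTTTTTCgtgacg
Rplp2: cagcgtcttcCTTTCgccgccggac
Mrps31: tccaaaaggagcggaacagtgcagg
Mrpl32: cccgcgtcccgctctgtcttgagaa
They lie at chr14:18270972-18270996 (minus strand) for Rpl15, chr2:39005117-39005141 (minus) for Rpl35, chr17:27635230-27635254 (minus) for Rps10, chr4:86857353-86857377 (minus) for Rps6, chr7:141447641-141447665 (plus) for Rplp2, chr8:22411330-22411354 (plus) for Mrps31 and chr13:14613023-14613047 (minus) for Mrpl32.

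A tract was counted where the annotated start was a C followed by at least 4 bases that were each C or T, read only on the strand of the gene. It stood at the start of 13 of 63 cytosolic genes in the RefSeq table (20.6%), of 0 of 66 mitochondrial genes and of 813 of all 27025 genes (3.01%). Within 5 bases of the start it was found in 28 cytosolic genes (44.4%), 16 mitochondrial genes (24.2%) and 21.2% of all genes. The 13 cytosolic genes with the tract had a median difference of 0.02 between the arrays and the 48 measured without it 0.04. Annotated starts can lie some bases from the starts used in a cell, and a missing match says only that these letters are not in the window.

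Of the 161 genes, 157 were measured, 83 cytosolic (51 Rpl and 32 Rps) and 74 mitochondrial (45 Mrpl and 29 Mrps). Mrpl21, Rpl10l, Rpl39l and Rps4y2 did not stand well above background on any array, and Rpl10l and Rpl39l are copies known for expression in the testis. The cytosolic genes had a median level of 7.33 on array A (from −3.18 to 8.35) and 7.18 on array B (from −4.25 to 8.49). The mitochondrial genes had a median of 2.96 on array A (from −5.40 to 5.46) and 2.69 on array B (from −5.08 to 5.64). Of the cytosolic genes, 77 were in the brightest of 10 equal bins of all measured genes by level, whereas the mitochondrial genes lay mainly in bin 9 (30 genes) and bin 8 (15 genes). Probes differ in how brightly they bind, so the level of one gene does not order it against another.

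**Figure D1:**
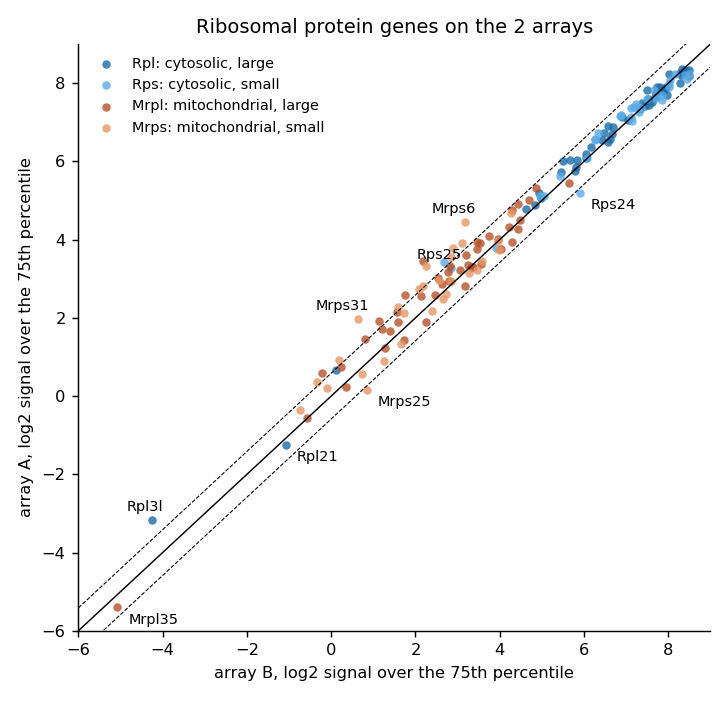
Scaled log2 level of each of the 157 measured ribosomal protein genes, array B on the horizontal and array A on the vertical axis. Equal values lie on the solid line and 1.5-fold differences on the dashed ones. Rpl3l is the only cytosolic gene at least 2-fold above the line of equality, and 4 mitochondrial genes are.

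Cytosolic ribosomal protein genes differed little between the arrays. Their median difference was 0.03 on the log2 scale, against −0.02 for all 14832 measured genes, and their quartiles were −0.07 and 0.22, against −0.41 and 0.34 for all genes. They were higher on array A in 49 genes and higher on array B in 34, which is 59.0% above 0 against 48.6% of all genes. A gene is called past 1.5-fold on an array where its level there was at least 1.5 times that on the other. Past 1.5-fold on array A were 2 of 83, against 12.5% of all genes, and past it on array B was 1 of 83, against 17.6%. The interquartile range was 0.283, compared with 0.427 for all genes of the brightest bin and 0.742 for all measured genes. In 53 of the 83 the difference was smaller than 0.204, a share of 63.9% against 29.4% of all genes. The difference was also smaller than that in 22 of the 74 mitochondrial genes (29.7%), about the share of all genes. This value is the error that the scanner software gave the difference of a typical ribosomal protein spot. It was also the lowest error of any measured member probe, and the median SD over 10 spots was 0.046. It serves here as a size and is not the measured noise of a gene mean.

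Mitochondrial ribosomal protein genes were shifted towards array A and more spread. Their median difference was 0.30 and their quartiles were −0.12 and 0.51, with an interquartile range of 0.636. Of the 74, 50 (67.6%) were higher on array A and 24 on B. Past 1.5-fold on array A were 16 (21.6%, against 12.5% of all genes), and 1 was past it on array B (1.35%, against 17.6%). Past 2-fold on array A were 4 of the 74, against 570 of all 14832 genes (3.84%), and on array B 0, against 7.31%. The count of 4 is small and is not read as an excess. The mitochondrial median exceeded the all-gene median by 0.32 and the cytosolic median by 0.27, sizes for which no test is possible with 1 array for each cell line. The 30 mitochondrial genes of bin 9 had a median of 0.16 against 0.10 for all genes of that bin, the 15 of bin 8 0.40 against 0.09, and the 9 of the brightest bin 0.33 against 0.06. In the brightest bin the 77 cytosolic genes had a median of 0.03, below the mitochondrial one. Lower down the order was the reverse, on few cytosolic genes. The 3 cytosolic genes of bin 9 had a median of 0.44. In bin 6 the 1 cytosolic gene had 0.55 and the 7 mitochondrial genes 0.30.

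**Figure D2:**
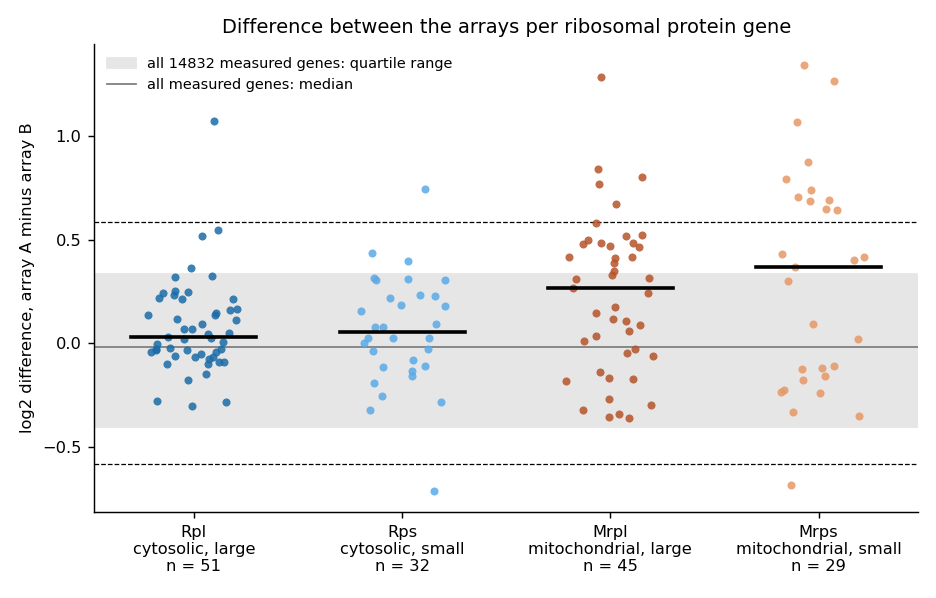
Log2 difference (array A minus array B) for each measured gene by class. Black bars mark class medians, the grey band the range between the quartiles and the grey line the median of all 14832 measured genes, and the dashed lines a 1.5-fold difference. Rpl and Rps medians lie near 0, while Mrpl (0.27) and Mrps (0.37) medians lie above it, and 11 of the 29 Mrps genes are past the upper dashed line.

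Genes with Mrps names, most of them proteins of the small subunit, held most of the larger differences. Of the 29 Mrps genes, 11 were past 1.5-fold on array A (37.9%, against 12.5% of all genes) and their median was 0.37. Of the 45 Mrpl genes 5 were (11.1%, about the share of all genes), and their median was 0.27. By any amount, 18 Mrps genes (62.1%) and 32 Mrpl genes (71.1%) were higher on array A, against 48.6% of all genes. The Mrps genes were thus more spread, with an interquartile range of 0.852 against 0.523, and not more often higher. Mrps31 had the largest difference of all ribosomal protein genes, with a signal of 5943 on array A and 1681 on B, or 2.54-fold after scaling. Mrps6, a core protein related to bacterial S6, had signals of 32664 and 9751, or 2.40-fold. Mrps10, related to bacterial S10, had signals of 15085 and 5166, or 2.09-fold. All 3 were higher on array A, and each was read by 1 probe on 1 spot.

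Mrps18 exists in mammals as 3 copies related to the single bacterial S18, and the copies differed from each other. Mrps18a, now placed in the large subunit, had a signal of 20651 on array A and 8072 on B, a difference of 0.88. Mrps18b was read by 2 probes, with signals of 2766 and 1285 on the first and 40815 and 18540 on the second, differences of 0.63 and 0.66. Mrps18c had signals of 14178 and 11982, which after scaling was a difference of −0.24. The a and b copies were thus higher on array A and the c copy lower.

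The other Mrps genes past 1.5-fold on array A were Mrps28 (difference of 0.79), Mrps5 (0.74), Mrps30 (0.71), Mrps14 (0.69), Mrps22 (0.69) and Mrps15 (0.65). Mrps5, Mrps14 and Mrps15 belong to families that bacteria share, whereas Mrps22 and Mrps30 are found in mitochondrial ribosomes only, and Mrps30 is now placed in the large subunit. In the other direction Mrps25 had a difference of −0.69, and its 2 probes gave −0.34 at signals of 16128 and 14659 and −1.03 at signals of 176 and 258. The larger of these came from the dim probe. Mrps35 (−0.35), Mrps33 (−0.33) and Mrps21 (−0.24) were next and stayed within 1.5-fold.

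Among the Mrpl genes, Mrpl32 stood apart. Its protein is matured by the mitochondrial m-AAA protease before it enters the subunit. Its signal was 16614 on array A and 4896 on B, or 2.43-fold after scaling. Mrpl17 (0.84), Mrpl1 (0.80), Mrpl38 (0.77) and Mrpl47 (0.67) were the other Mrpl genes past 1.5-fold, all higher on array A. Mrpl17 and Mrpl1 are relatives of bacterial L17 and L1, and Mrpl47 of bacterial L29. The largest differences the other way were −0.36 for Mrpl14, −0.36 for Mrpl28, −0.34 for Mrpl18 and −0.33 for Mrpl35, whose log2 levels of −5.40 on array A and −5.08 on B were low. Mrpl44 (0.27) and Mrpl39 (0.24) were near the middle of the class.

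**Figure D3:**
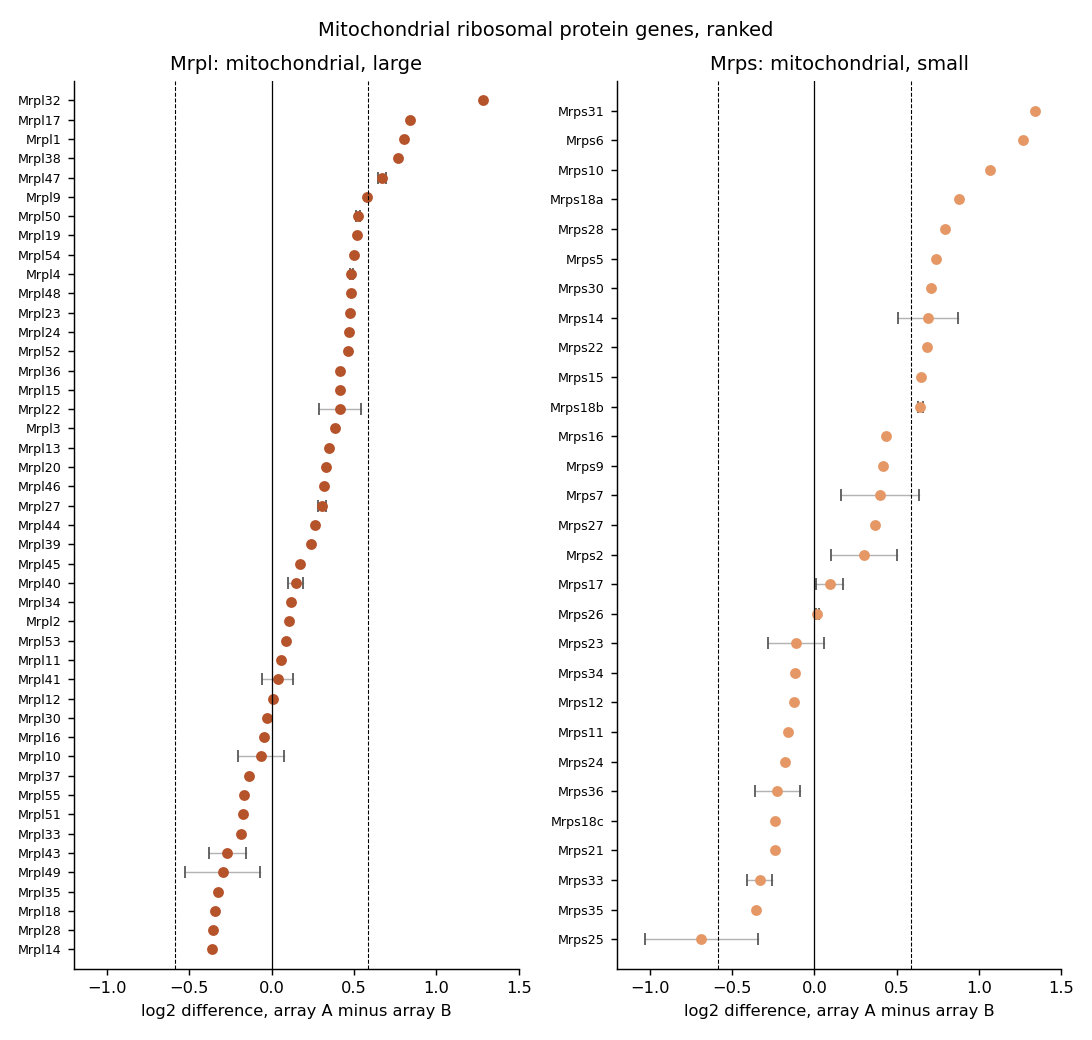
The 45 Mrpl and 29 Mrps genes ranked by their log2 difference, array A minus array B. Dots are genes, the mean over probes, and ticks joined by a line are the probes of genes with more than 1. Dashed lines mark a 1.5-fold difference. Mrps31, Mrpl32 and Mrps6 lie past 1.2 and Mrps25, whose probes differ by 0.69, lies lowest.

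At the 1.5-fold limit, Mrpl9 (1.49-fold) and Rpl7l1 (1.46-fold) were just short, and Mrps18b (1.56-fold) and Mrps15 (1.57-fold) just past it.

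Among cytosolic genes, 1 was at least 2-fold apart. Rpl3l, the striated muscle copy of Rpl3, had a difference of 1.08 at signals of 167 on array A and 56.7 on B, where the lowest signals called well above background were 27.1 and 22.9. Rpl3 itself had levels of 7.90 and 7.74 and a difference of 0.16. Rps19bp1 (0.75) matched the rule by name, but its product binds the ribosomal protein Rps19 and is not a subunit. The remaining 80 cytosolic genes besides Rpl3l, Rps19bp1 and Rps24 were within 1.5-fold.

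The other copies named after a ribosomal protein were set beside it. Rpl7l1 had a difference of 0.55 and Rpl7 of 0.00. Rps27l, known as a p53 target, had 0.30 and Rps27 −0.08. Rpl36al had 0.21 and Rpl36a −0.08. In these pairs the copy was higher on array A by more than the parent gene, but each copy was read by 1 probe. Rpl26l1 (0.25) and Rpl26 (0.32), and Rpl22l1 (−0.04) and Rpl22 (0.09), lay closer together, and in both pairs the copy was the lower. Rpl10, Rpl39 and Rps4x, whose copies were not measured, had differences of −0.03, 0.15 and 0.00.

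The stalk that recruits translation factors is built of Rplp0, Rplp1 and Rplp2. Rplp0 had a level of 7.69 on array A and 7.97 on B, a difference of −0.29. Rplp2 had 8.19 and 8.49, a difference of −0.30, while Rplp1 had 8.35 and 8.33, a difference of 0.02. The large-subunit proteins Rpl5 and Rpl11, which bind 5S RNA and can bind Mdm2, had differences of 0.05 and −0.03. Rps10 (−0.32), Rps20 (−0.29), Rpl9 (−0.28) and Rps14 (−0.26) were the other cytosolic genes lowest on array A after Rps24. Rps25 (0.44) and Rps15 (0.40) were the highest true small-subunit genes, and Rpl30 (0.52), Rpl31 (0.36) and Rpl26 (0.32) the highest large-subunit genes after the copies. None of these reached 1.5-fold. Rpl4 (0.03) and Rpl6 (0.02) lay at the middle of the Rpl class, and Rps21 (0.08) near that of the Rps class.

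The mean over probes hid larger differences within single genes. Rps24 had a difference of −0.71, the lowest of the cytosolic genes, and this came from 1 of its 3 probes. The variant 1 probe had signals of 4146 on array A and 11399 on B, a difference of −1.94. The variant 2 probe, with signals of 105783 and 74458, gave 0.03, and the variant 3 probe, with 374809 and 314636, gave −0.23. The variants are those of the accessions in the array design, and whether a probe reads only the variant it is labelled with was not tested. The variant 2 probe ends upstream of the start of the variant 1 probe, and the variant 3 probe starts 6 bases after the end of the latter (25315021 against 25315015).

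Rpl30, Rpsa and Rpl31 each had 1 dim probe that was higher on array A than their bright ones. For Rpl30 the dim probe, named for variant 1 (chr15:34372831-34372890, minus strand), gave 1.24, and the others, named for variant 2, gave 0.26 and 0.04. For Rpsa, which encodes the laminin receptor protein of the small subunit, the dim probe (chr9:120040967-120041026, plus strand) gave 1.23 and the other 3 gave −0.12, −0.16 and −0.20. For Rpl31 the dim probe (chr1:39428508-39428567, plus strand) gave 0.99 and the other 4 lay between −0.04 and 0.39. The dim probes of Rpsa and Rpl31 lie downstream of the other probes of the same gene on its chromosome, and that of Rpl30 lies upstream. Their first 30 bases, shown because they carry these differences, are as follows.
Rpl30 dim probe: tagctggtgtttgacgctctggattataat
Rpsa dim probe: acctggccagattgggattttgtgtcccag
Rpl31 dim probe: cattttcagttccaggtttatgtgtgagcc

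The comparison was extended to all 53 cytosolic genes with several measured probes. The dimmest probe was higher on array A than the brightest in 40 of the 53, with a median difference of 0.15 for the dimmest and −0.07 for the brightest probes. Of the dimmest probes 6 were past 1.5-fold on array A and 1 on B, and of the brightest 1 and 0. Among the 20 mitochondrial genes with several probes, the dimmest was the higher in 8, with medians of 0.10 and 0.15. These counts are descriptions, as the probes of a gene share its message. They and the medians by intron crossing that follow cover ribosomal protein genes only. Whether they differ from those of all genes is therefore not shown. The probes that cross an intron had a median of 0.09 in cytosolic genes (37 probes) against 0.02 for the others (134), and of 0.41 in mitochondrial genes (13 probes) against 0.19 (81).

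**Figure D4:**
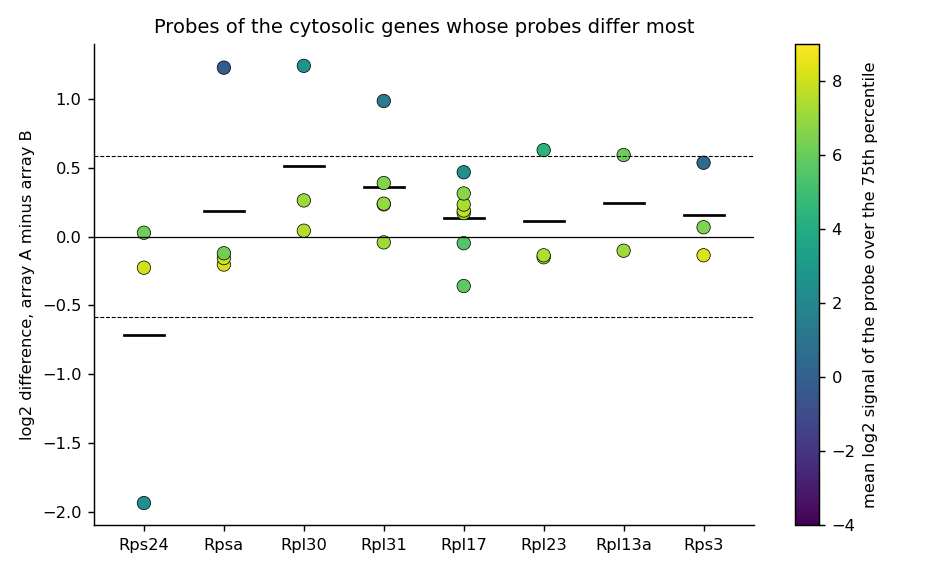
Log2 difference (array A minus array B) for each measured probe of the 8 cytosolic genes whose probes differ most. Colour gives the mean log2 level of the probe, black bars the mean over probes, and dashed lines a 1.5-fold difference. The outlying probes of Rps24, Rpsa, Rpl30 and Rpl31 are the dimmest of their genes.

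Cytosolic ribosomal protein genes have many processed copies in the mouse genome, and the signal of a probe can include that of a copy. Of 175 cytosolic probes with a known chromosome, 9 were placed by the array design on another chromosome than their gene, from Rpl12, Rpl13, Rpl31, Rpl36, Rps29 and Rps4x, against 0 of 95 mitochondrial probes. The differences of these 9 lay between −0.13 and 0.23.

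Probes printed on 10 spots gave the error within an array. The probe of Mrpl34 had a median signal of 8941 on array A (8104 to 9917) and 6051 on array B (4938 to 6691), and its difference was 0.12 ± 0.08 (SD over 10 spots). The probe of Mrps35 had 2820 (2517 to 2959) and 2543 (2500 to 2664), a difference of −0.35 ± 0.06. For a probe of Rpl23 the difference was 0.63 ± 0.05, with median signals of 38837 and 18017, while its other 2 probes were lower on array A, the lowest at −0.15. For a probe of Mrpl50 it was 0.53 ± 0.02. All 10 spots of each of these probes lay on the same side of 0 after scaling. Over all 211 probes with 10 spots the median SD was 0.046, so spot noise was far below the differences of Mrps31, Mrpl32, Mrps6 and Mrps10. It does not include the error between cultures, extractions or arrays.

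Genes that act with the ribosome were taken as lists, to be read against all measured genes, of which 48.6% were higher on array A, 12.5% were past 1.5-fold there and 17.6% were past it on B. Of 47 nucleolar ribosome biogenesis genes, all measured, 40 were higher on array A, 18 were past 1.5-fold there (38.3%) and 0 on B, with a median of 0.51. The largest were Dimt1 (1.45), an rRNA methyltransferase, and Pno1 (1.18) and Ebna1bp2 (1.11), which act in small- and large-subunit maturation. Beside this, the median of the cytosolic ribosomal protein genes was 0.03 and that of the mitochondrial ones 0.30. Of RNA polymerase I genes, 14 of 15 were measured, with a median of 0.19 and 3 past 1.5-fold on array A (21.4%), led by the promoter factor Taf1a (0.92).

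The 7 mitochondrial ribosome genes with other names had a median of 0.17 and 0 past 1.5-fold, from −0.26 for Ptcd3 to 0.57 for Chchd1. The 22 measured mitochondrial translation and assembly genes had a median of 0.13. Of these, 3 were past 1.5-fold on array A, namely Mterfd1 (0.96), Mtrf1 (0.95) and Gfm2 (0.60), and 1 on array B, the initiation factor Mtif3 (−0.97). The first count is 13.6% of the list, near the 12.5% of all genes, and the second 4.55%, against 17.6%. Mterfd1 is a regulator of mitochondrial transcription, and Mtrf1 and Gfm2 act in release and recycling.

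The 23 other cytosolic translation genes with a known TOP tract had a median of 0.19, with 1 past 1.5-fold on array A (4.35%), the initiation factor subunit Eif3e (1.09), and 0 on array B. Btf3 (0.58) and Eif3a (0.52) came next, while Fau, whose product carries the ribosomal protein Rps30, had −0.19. Of 16 factors acting on ribosomal protein genes, Myc had a difference of 0.25 and Mycn of 0.75, E2f1 of −0.98 and Eif4ebp2, an inhibitor of translation initiation under mTOR, of −0.75. Larp1, which binds TOP messages, had 0.60. Their median was 0.24.

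The position of the mitochondrial genes above the cytosolic ones held under every scaling and filter tried, but the sign of the cytosolic median did not. Scaling each array to its median moved the median of all genes by 0.29, to 0.27, and changed the share of genes past 1.5-fold from 12.5% to 27.8% on array A, and from 17.6% to 9.51% on array B. Relative to the median of all genes, the mitochondrial median stayed 0.20 to 0.47 above in all 13 alternatives, and the cytosolic median ranged from −0.03 to 0.19. Some of these alternatives could not change the mitochondrial offset of 0.32. Scaling to the median or to the percentile of probes well above background shifts all genes by the same amount. The authors' table holds the same scaling, and leaving out Rps19bp1 does not touch the mitochondrial genes.

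**Figure D5:**
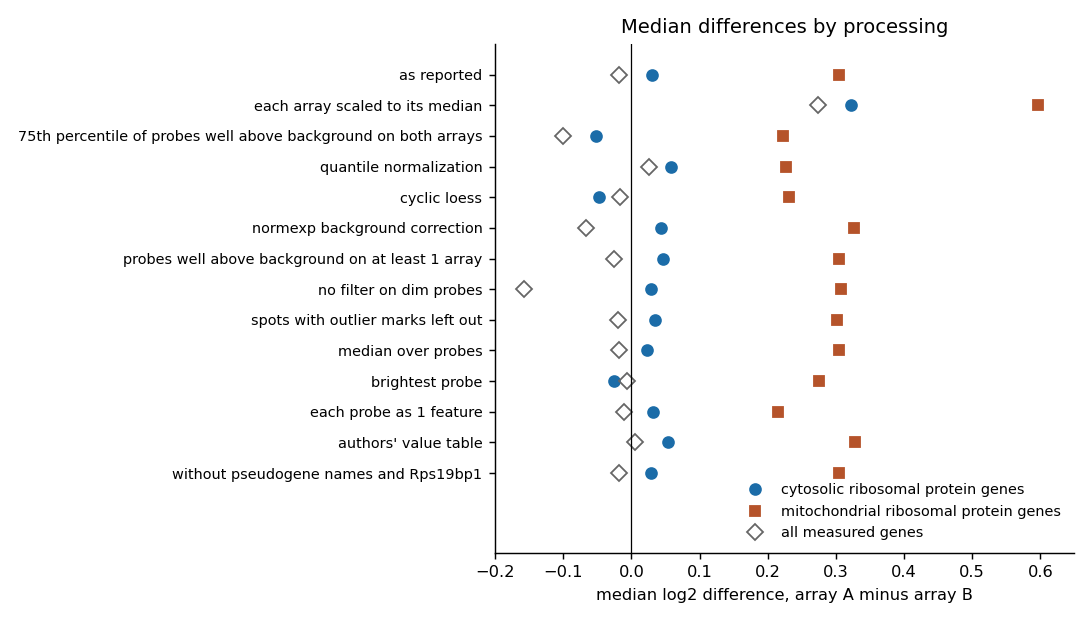
Median log2 difference (array A minus array B) for the cytosolic and mitochondrial ribosomal protein genes and of all measured genes, as reported and under each of 13 alternatives. The mitochondrial median is the highest of the 3 in every row. Scaling to the median moves all 3 upwards together and cannot change their order.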

How the data were processed

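Cyanine 3-labelled cRNA of each cell line was read on 1 Agilent whole mouse genome array. The deposited scanner output holds spot intensity from Agilent Feature Extraction 9.5.1.1, corrected for background and for trends over the surface, with surrogate values where a spot was not above background. In the deposited log2 table the authors had raised signals below 1.0 to 1.0 and divided by the 75th percentile of the chip, in GeneSpring GX. It is not centred per gene.

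Of 44397 features, 43020 spots (39429 probes) were not controls and were used. The same steps were applied to the scanner signals, of which 0 were below 1.0. Spots of a probe were averaged, and a gene took the mean over its probes well above background on both arrays. Probes well above background numbered 19480 (49.4%) on array A and 19660 (49.9%) on array B. Gene names are those of the array design; 266 of the 273 member probes matched an accession in the RefSeq gene table, 263 with the same symbol and 3 with another. Probes with newer member symbols (4) were not members by the rule. Precision is limited by the number of arrays.

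With 1 array per cell line no test was made; 1.5-fold and 2-fold are sizes, and counts stand beside those of all measured genes. The members and the gene lists were chosen with earlier results of these data known. Named were, in each class, the 4 largest differences in each direction and the 2 genes nearest the median, all members at least 2-fold apart, copies with the gene they are named after, the 3 genes whose probes disagree most, the Mrpl and Rpl members on 10 spots, and up to 4 genes of each list. A few genes that fall under these criteria are left out of the text. The remaining genes, among them all others past 1.5-fold, the other copies of Mrps18, Rpl31, the stalk, Rpl5 and Rpl11, were named after their values were seen. The lists of macrophage, mast cell and IL-3 receptor markers are given in the closing section. Alternatives were scaling to the median, to that percentile over probes well above background only, by quantiles or by cyclic loess, normexp with an offset of 50, a looser filter or none, no spots with outlier marks, the brightest probe or the median over probes, each probe as 1 feature, the authors' table, and leaving out Rps19bp1. Simulated data served to check the main scaling, the averaging over spots and probes, and the count of genes past 1.5-fold. The alternatives and the other steps were not checked in this way. Python 3.11.15 with numpy 2.4.6, pandas 2.3.3 and matplotlib 3.10.9 and R 4.3.3 with limma 3.58.1 were used.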

Additional observations from a re-analysis of the deposited data

How the results depend on the processing

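No paired analysis was possible because each cell line has 1 array, and no replicate could be left out for the same reason. The median difference of the cytosolic genes (0.03) changed sign to −0.052 with the percentile taken over probes well above background, to −0.047 with cyclic loess and to −0.026 with the brightest probe, and was 0.32 with scaling to the median. The Rpl median (0.03) turned to −0.052, −0.047 and −0.065 under the first 3 of these and the Rps median (0.05) to −0.031 and −0.035 under the first 2. The mitochondrial median (0.30) was 0.60 with scaling to the median, 0.22 with the percentile of probes well above background, 0.23 by quantiles, 0.23 by cyclic loess and 0.21 with each probe as 1 feature. The cytosolic minus the mitochondrial median (−0.27) was −0.17 by quantiles and −0.18 per probe. Cytosolic genes past 1.5-fold on array A (2) numbered 13 with scaling to the median, 1 with normexp, 9 per probe and 1 without Rps19bp1, and those past it on array B (1) numbered 0 with scaling to the median, 0 with the median over probes and 0 with the brightest probe. Cytosolic genes at least 2-fold apart (1) numbered 2 with scaling to the median, 0 with the percentile of probes well above background, 0 with normexp, 2 without spots with outlier marks and 4 per probe. With scaling to the median, 38 mitochondrial genes (16) were past 1.5-fold on array A, 0 (1) on array B and 10 (4) at least 2-fold apart, and with the brightest probe 0 (1) were past 1.5-fold on array B. Scaling to the median raised every gene by 0.29, and 27.8% of all genes were then past 1.5-fold on array A and 9.51% on B. The 13 of 83 cytosolic and 38 of 74 mitochondrial genes are to be read against the first share. Of the 20 genes past 1.5-fold, 0 changed sign under the 11 alternatives that give each gene a value anew. This was largely fixed beforehand, as the genes were picked for a difference of at least 0.58, which exceeds the shift of 0.29. Genes read by 1 probe also keep their value with the brightest probe and with the median over probes. Mrps15 and Mrps18b fell short of 1.5-fold with the percentile over probes well above background, by quantiles and by cyclic loess, Mrps14, Mrps25 and Rps24 with the brightest probe, Mrps25 and Rps24 with scaling to the median, Rps24 with the median over probes, and Rpl3l with normexp. The causes were not tested beyond what each setting leaves out or rescales. Dim probes limit Rpl3l and Mrpl35.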

Other observations

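Marker genes of other cell types differed between the arrays, and whether they bear on the ribosomal protein genes was not tested. The summed level of mast cell markers was 1.98 on array A (array B: 6.54), with 3 of 6 measured. By their differences Cpa3 (−5.44) and Cma1 (−2.95) were lower on array A, and Hdc (1.67) was higher. The summed level of macrophage markers was 1.23 and 0.751, with 2 of 6 measured. These went opposite ways, Csf1r with a difference of −0.46 and Emr1 of 0.90. For IL-3 receptor and haematopoietic genes the sum was 50.4 and 114, with 4 of 5 measured. In that list Csf2rb and Csf2rb2, which encode beta chains of the IL-3 receptor, had differences of −1.86 and −1.60. Il3ra (0.40) and Ptprc (0.75) were higher on array A. In the neutrophil list S100a9 had log2 levels of −1.76 (array A) and 4.14 (array B). Mpo, Ltf and Ngp were also lower on array A, while Elane had a difference of 0.10.

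Among probes that newer annotation gives to ribosomal protein genes under other names, those of Mrpl42 (D10Ertd322e on the array), Mrpl57 (Mrp63) and Mrpl58 (Ict1) had differences of 0.58, 0.50 and 0.40, all higher on array A and within 1.5-fold. Mrp63 and Ict1 were already counted among the 7 mitochondrial ribosome genes with other names. In that list the median was 0.17, and 3 of the 7 were lower on array A.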
